A study of Mus musculus with 2 samples.

Results

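The mitochondrial ribosomal protein genes are the nuclear genes whose symbols start with Mrpl, for proteins named after the large subunit of the mitochondrial ribosome, or Mrps, for the small subunit. They were taken from the array's annotation by symbol alone. Of 45101 probe sets, 156 carried exactly 1 such symbol. They belonged to 76 of the 18193 genes named on the array, 47 of the large and 29 of the small subunit, and each gene was read from whichever of its probe sets had the highest mean of the pair of arrays. Livers of Yap+/- mice, which carry 1 disrupted copy of Yap1, were set beside livers of Yap+/+ mice. Both groups were untreated mice on a C57BL/6 background, bred onto it for at least 6 generations and killed on postnatal day 30. RNA was labelled from the 3-prime end and hybridised to Affymetrix expression arrays. Each genotype was 1 pool of livers from 5 mice on 1 array, so no value below has a replicate, no difference between genotypes could be tested, and the pool hides the spread between mice. The whole animal carries the disrupted copy, so the livers do not isolate its loss in hepatocytes.

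Mitochondrial ribosomes translate the few messenger RNAs that mitochondrial DNA encodes, all of them for subunits of the respiratory chain and ATP synthase. Their ribosomal RNAs come from the mitochondrial genome, whereas every protein of both subunits is encoded in the nucleus, made in the cytosol and imported. Some of these proteins have a direct counterpart in the bacterial ribosome and the others are classed as specific to mitochondria. Hepatocytes are rich in mitochondria. YAP, the product of Yap1, is the co-activator that the Hippo kinases restrain, and it is known for its part in liver growth.

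Promoter sequences are shown for the 4 genes of the family that differed at least 1.2-fold between the pools, Mrpl1, Mrpl9, Mrps12 and Mrps23, and for Mrpl46, whose start lies 42 bases from that of Mrps11, another gene of the family, on the opposite strand. Each is the RefSeq window from 250 bases before to 50 after the annotated start, build GRCm38.p6, in the direction of the gene. Capitals mark exact matches, on either strand, to the short motifs named after the sequences.
Mrpl1, chr5:96209865-96210164, plus strand: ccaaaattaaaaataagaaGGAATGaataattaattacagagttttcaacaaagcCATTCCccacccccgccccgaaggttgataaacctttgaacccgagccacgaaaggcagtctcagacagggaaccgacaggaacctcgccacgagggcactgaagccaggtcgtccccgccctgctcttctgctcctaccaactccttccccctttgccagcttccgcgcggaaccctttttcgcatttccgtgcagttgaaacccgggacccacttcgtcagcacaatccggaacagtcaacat
Mrpl9, chr3:94443086-94443385, plus strand: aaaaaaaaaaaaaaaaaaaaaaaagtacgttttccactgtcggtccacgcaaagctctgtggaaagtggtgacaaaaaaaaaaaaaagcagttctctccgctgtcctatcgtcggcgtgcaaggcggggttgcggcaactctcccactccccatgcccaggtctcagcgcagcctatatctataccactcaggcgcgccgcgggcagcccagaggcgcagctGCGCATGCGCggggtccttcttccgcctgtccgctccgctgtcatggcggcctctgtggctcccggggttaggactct
Mrps12, chr7:28741772-28742071, minus strand: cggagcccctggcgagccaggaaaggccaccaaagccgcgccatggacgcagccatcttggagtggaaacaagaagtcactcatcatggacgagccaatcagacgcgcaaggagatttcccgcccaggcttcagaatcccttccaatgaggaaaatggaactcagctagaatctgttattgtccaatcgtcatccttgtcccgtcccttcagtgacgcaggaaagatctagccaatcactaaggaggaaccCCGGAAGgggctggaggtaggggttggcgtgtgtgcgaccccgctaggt
Mrps23, chr11:88204138-88204437, plus strand: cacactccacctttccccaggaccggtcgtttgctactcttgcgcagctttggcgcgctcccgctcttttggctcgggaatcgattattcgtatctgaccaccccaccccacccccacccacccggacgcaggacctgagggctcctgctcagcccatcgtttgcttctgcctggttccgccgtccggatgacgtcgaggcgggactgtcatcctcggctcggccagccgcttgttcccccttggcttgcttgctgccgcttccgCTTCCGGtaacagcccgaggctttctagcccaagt
Mrpl46, chr7:78783040-78783339, minus strand: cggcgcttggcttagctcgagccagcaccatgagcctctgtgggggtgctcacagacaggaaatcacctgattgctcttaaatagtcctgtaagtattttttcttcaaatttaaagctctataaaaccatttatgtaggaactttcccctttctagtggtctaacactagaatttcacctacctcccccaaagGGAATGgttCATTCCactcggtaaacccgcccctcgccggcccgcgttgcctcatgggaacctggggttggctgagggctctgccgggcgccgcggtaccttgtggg
The motifs searched were CCGGAAG (bound by ETS factors such as GABPA), GCGCATGC (NRF1), AAGATGGCG (YY1), CACGTG (the E-box of MYC and clock factors) and GGAATG (TEAD, the DNA-binding partner of YAP). NRF1 and GABPA are known regulators of nuclear genes for mitochondria. In the sequences shown, Mrpl9 held a pair of overlapping NRF1 matches on opposite strands, Mrps12 and Mrps23 each held 1 ETS match, and Mrpl1 and Mrpl46 each held a pair of TEAD matches. A match is a description of these letters and not a shown binding site.

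The level of the whole family hardly differed between the pools. All 76 genes lay above the level taken as measured, a mean log2 value of 6, with values from 6.98 to 11.94 in Yap+/+ and from 7.02 to 11.98 in Yap+/-. A difference is always the log2 value in Yap+/- minus that in Yap+/+. In Yap+/- 41 members read higher and 35 lower, which is 53.9% and 46.1%, against 48.8% higher and 49.6% lower among all 9299 measured genes. The median difference was 0.016 over the members and 0.00 over all measured genes. The spread over the members, a robust SD (from the median absolute deviation) of 0.14, was the same as that of the 6734 genes in the same range of levels, also 0.14.

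No member differed by 1.5-fold, a size reached by 1.34% of measured genes in either direction. At 1.2-fold, 3 of 76 members were higher in Yap+/- (3.95%, against 6.02% of measured genes) and 1 was lower (1.32%, against 5.45%). These shares describe 1 pair of arrays. As a scale for single genes, differences from the 2 brightest probe sets of a gene were compared over 3406 genes and disagreed by a robust SD of 0.17. Differences smaller than that were found for 66 of the 76 members (86.8%) and for 73.9% of all measured genes. Over the 24 members with at least 2 measured probe sets this disagreement was 0.12. Such a scale carries the error of both probe sets, so it is wide for 1 probe set, and it holds no spread between mice. The brighter probe set of Yap1 itself read 9.40 in Yap+/+ and 9.24 in Yap+/-, 1.11-fold lower. Its other probe set read 6.01 and 5.77, 1.18-fold lower, with the Yap+/- value under 6. These check the labels only weakly, because the sources used here do not place them relative to the disruption. The brighter probe set's difference, -0.15, is also smaller in size than 0.17.

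**Figure D1:**
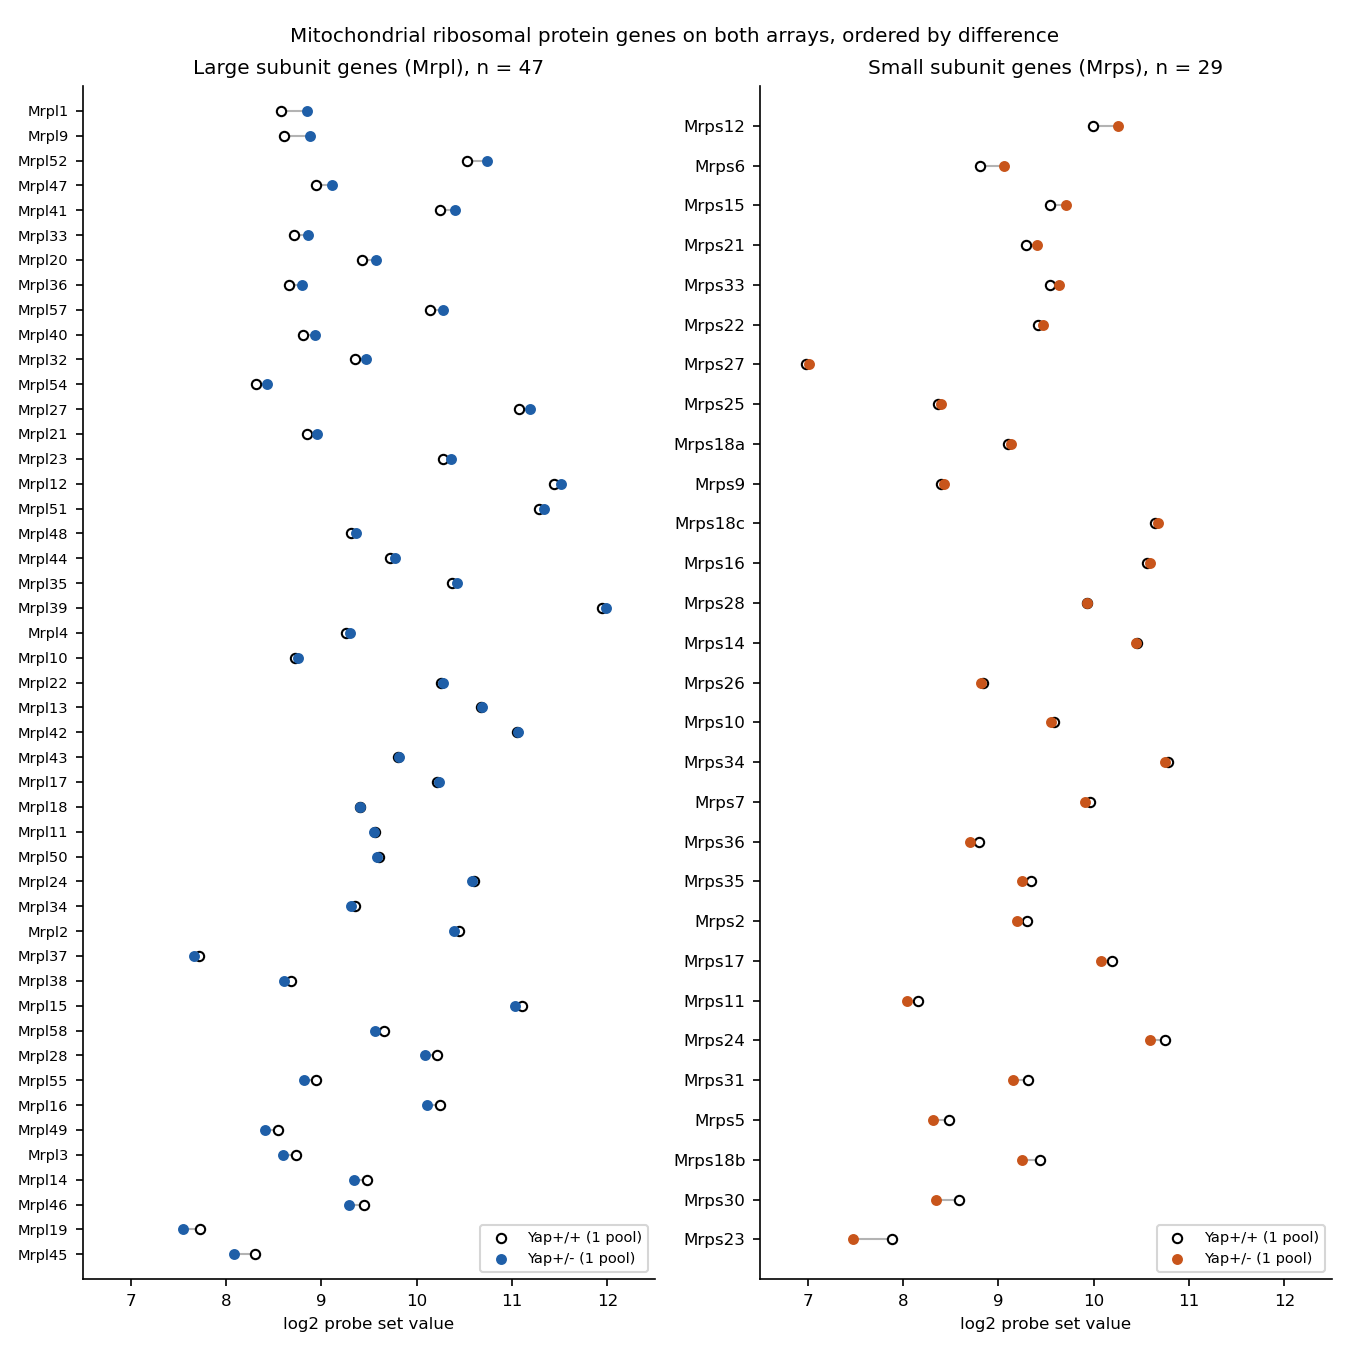
Log2 probe set values of the 47 large subunit genes (left) and 29 small subunit genes (right), 1 row per gene, ordered by difference. Open circles are the Yap+/+ pool and filled circles the Yap+/- pool, with 1 array each and no error bars. Most pairs of circles nearly touch, and the widest gap is that of Mrps23.

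**Figure D2:**
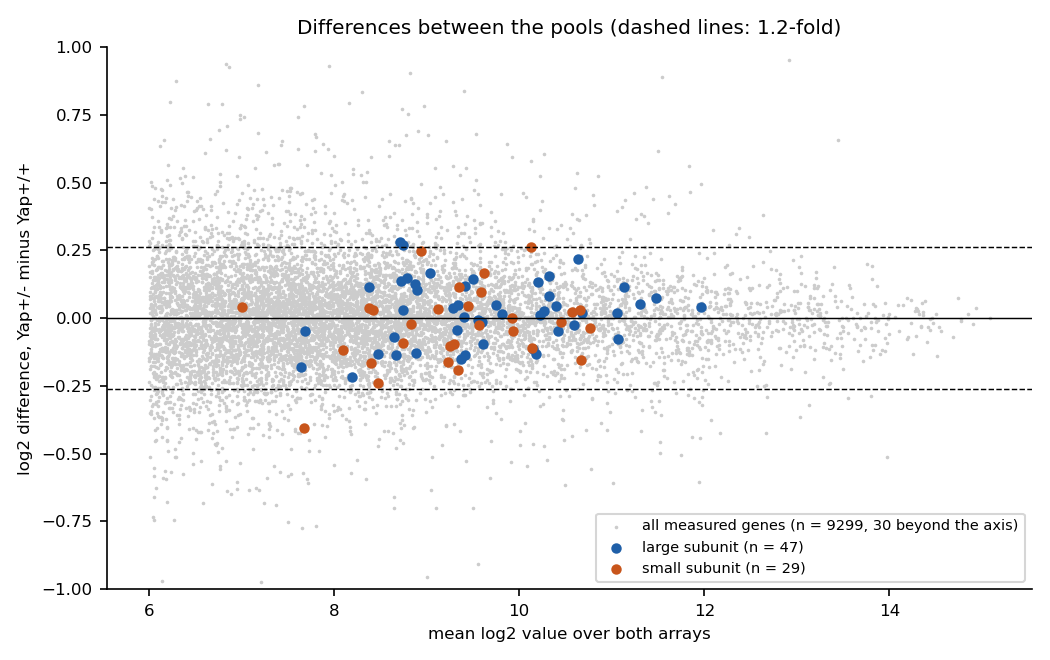
Log2 difference (Yap+/- minus Yap+/+) against the mean log2 value over both arrays, for all 9299 measured genes in grey, large subunit genes in blue and small subunit genes in orange, with dashed lines at 1.2-fold and 30 genes beyond the axis. The 76 members lie within the cloud of all genes, and 4 lie past a dashed line.

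The large and the small subunit lay on opposite sides of zero by small amounts. Of 47 large subunit genes 29 read higher and 18 lower in Yap+/-, with a median difference of 0.025 and a range from -0.22 to 0.28. Of 29 small subunit genes 12 read higher and 17 lower, with a median of -0.023 and a range from -0.40 to 0.26. The small subunit median was below the large subunit median by a log2 difference of -0.048. The ranges overlapped, but Mrps23 and Mrps30 lay below every large subunit gene and Mrpl1 and Mrpl9 above every small subunit gene. The difference between the subunits was not tested. Some names follow history and not structure. Mrps30 and Mrps18a are known to sit in the large subunit, and the product of Mrps36 is now assigned to the oxoglutarate dehydrogenase complex. With these moved or left out, 30 of 49 large and 11 of 26 small subunit genes read higher, and the medians were 0.025 and -0.020.

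The members were also grouped by descent. The 45 members with a bacterial counterpart had a median difference of 0.019, with 25 higher, and the 30 classed as specific to mitochondria had a median of 0.016, with 16 higher. The classes follow the current naming of the proteins, which counts Mrps18c as the counterpart of bacterial S18 and its relatives Mrps18a and Mrps18b as specific to mitochondria. Within the large subunit as the structure defines it, the medians were 0.025 over 29 and 0.026 over 20 genes. Within the small subunit they were -0.009 over 16 and -0.030 over 10 genes.

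Mrpl1 and Mrpl9 had the largest positive differences in the large subunit. Mrpl1, whose protein forms the mobile stalk near the exit of spent tRNA, read 8.57 in Yap+/+ and 8.85 in Yap+/-, 1.22-fold higher. Its other measured probe set gave -0.061 and so read lower. Mrpl9, the counterpart of a bacterial protein at the base of that stalk, read 8.61 and 8.88, 1.21-fold higher, and its 2 other measured probe sets differed by 0.17 and -0.067. For both genes the probe sets thus did not share 1 sign.

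Next came Mrpl52, a protein specific to mitochondria, at 10.52 in Yap+/+ and 10.74 in Yap+/-, 1.16-fold higher. Its 3 measured probe sets all read higher in Yap+/-, by 0.15 to 0.22. Mrpl47, at the mouth of the tunnel through which the new protein leaves, read 8.95 and 9.11, 1.12-fold higher. Mrpl41, specific to mitochondria, read 10.24 and 10.40, 1.11-fold higher, while its other measured probe set differed by -0.014. Mrpl33, one of the smallest proteins of the subunit, read 8.72 and 8.86, 1.11-fold higher. Mrpl12, part of the stalk that recruits translation factors and also reported to bind the mitochondrial RNA polymerase, read 11.44 and 11.52, 1.05-fold higher.

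At the other end of the large subunit, Mrpl45, which holds the ribosome to the inner membrane at the tunnel exit, read 8.30 in Yap+/+ and 8.09 in Yap+/-, 1.16-fold lower. Mrpl19 read 7.73 and 7.55, 1.13-fold lower, and its other measured probe set was lower by more, with a difference of -0.34. Mrpl46 read 9.44 and 9.29, 1.11-fold lower. The start of Mrpl46 faces that of the small subunit gene Mrps11, which read 8.16 and 8.04, 1.09-fold lower, so that the 2 genes with facing starts, whose shared promoter region is shown above from the Mrpl46 side, both read lower. Mrpl14, at the face that joins the small subunit, read 9.48 and 9.35, 1.10-fold lower. Mrpl3, near the site where peptide bonds form, read 8.73 and 8.60, 1.10-fold lower, with its other measured probe set at -0.20. Mrpl49 read 8.54 and 8.41, 1.10-fold lower, with its other measured probe set at -0.039. For Mrpl19, Mrpl3 and Mrpl49 the measured probe sets shared the lower direction.

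In the small subunit, Mrps23 had the largest difference of the family. This protein, specific to mitochondria, read 7.88 in Yap+/+ and 7.47 in Yap+/-, 1.32-fold lower, and its other measured probe set read 7.74 in Yap+/+ with a difference of -0.34. Mrps30, placed in the large subunit by structure, read 8.59 and 8.35, 1.18-fold lower. Mrps5, near the entrance for messenger RNA, read 8.48 and 8.31, 1.12-fold lower, and its other measured probe sets differed by 0.042 and -0.29. Mrps31 read 9.31 and 9.15, 1.12-fold lower. Mrps24, also at the messenger RNA entrance, read 10.75 and 10.59, 1.11-fold lower, with its other measured probe set at 0.027. Mrps36 read 8.79 and 8.70, 1.06-fold lower.

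Mrps12, a protein of the decoding centre, had the largest positive difference of the small subunit, reading 9.99 in Yap+/+ and 10.25 in Yap+/-. Its log2 difference of 0.2632 lay just past the 1.2-fold threshold of 0.2630, so its count as past the threshold rests on the last digits. Just inside the threshold was Mrps6, at 8.81 and 9.06, 1.19-fold higher, whose other measured probe set differed by 0.21. Mrps15 read 9.54 and 9.71, 1.12-fold higher, and its other measured probe set differed by 0.38. For Mrps6 and Mrps15 both probe sets thus read higher in Yap+/-. Smaller positive differences were those of Mrps21 (9.29 and 9.41, 1.08-fold), Mrps33 (9.54 and 9.64, 1.07-fold) and Mrps22, a gene mutated in inherited mitochondrial disease (9.42 and 9.46, 1.03-fold).

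The 3 Mrps18 genes encode related proteins that occupy different places in the mitochondrial ribosome, and their differences did not share 1 sign. Mrps18b read 9.44 in Yap+/+ and 9.25 in Yap+/-, 1.14-fold lower. Mrps18a read 9.10 and 9.14, and Mrps18c 10.64 and 10.67, differences of 0.033 and 0.029. Each gene has its own probe set, and whether these differences between relatives exceed the spread between mice was not tested.

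Repeat probe sets show how firmly single genes were read. Of the 76 genes, 24 had at least 2 measured probe sets, 62 in all. In 13 of the 24 genes all measured probe sets had the same sign, and in 11 they did not. The 2 brightest probe sets had the same sign in 16 of 24 genes. Among the 14 genes whose brightest probe set differed by at least 0.1, the second had the same sign in 9. Of the 38 measured probe sets that did not represent their gene, 1 was at least 1.2-fold higher in Yap+/- and 5 were at least 1.2-fold lower, those of Mrps9 (-0.35), Mrpl19 (-0.34), Mrps23 (-0.34), Mrpl38 (-0.31) and Mrps5 (-0.29). The matching shares over all genes were not computed for such probe sets, so these counts have no background beside them. For Mrps9 the brightest probe set differed by 0.029, so the gene's direction depends on which probe set is read. Probe sets of a gene share the same pair of RNA pools and are not replicates.

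**Figure D3:**
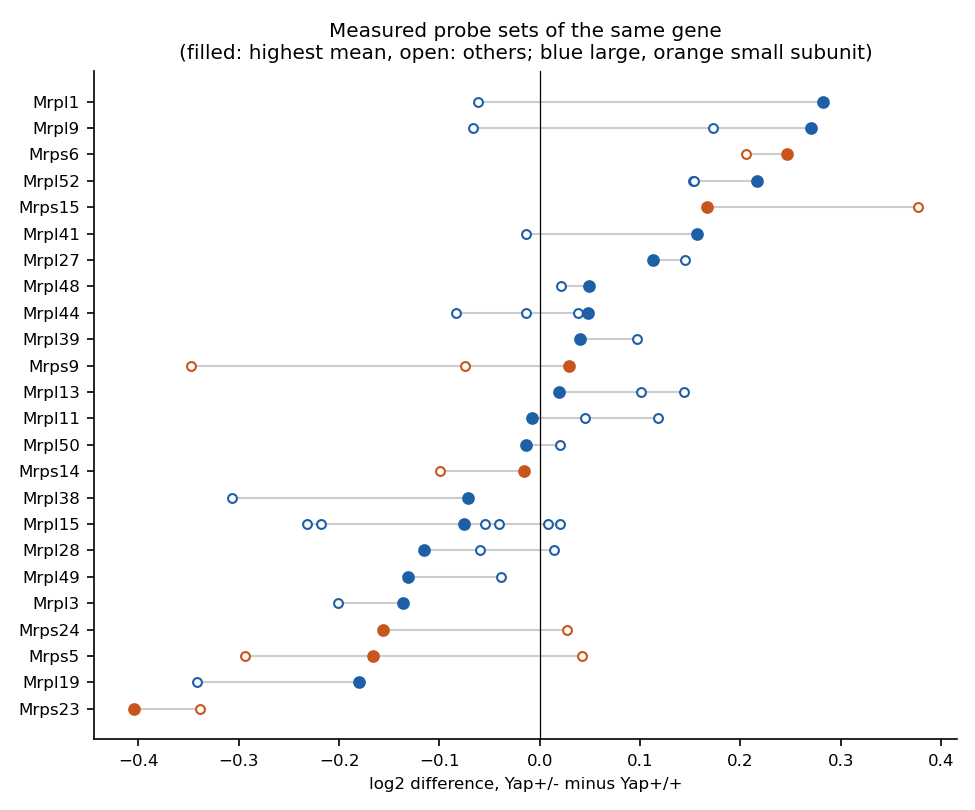
Log2 difference (Yap+/- minus Yap+/+) of every measured probe set of the 24 genes with more than 1, 1 row per gene, ordered by the brightest probe set (filled) beside the others (open), blue for large and orange for small subunit genes. Mrps23, Mrpl52, Mrps6 and Mrps15 keep 1 side of zero, whereas Mrpl1, Mrpl9 and Mrps9 cross it.

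The lists also held 4 measured genes for mitochondrial ribosome proteins that have other symbols, and they differed in both directions. Dap3, a GTP-binding protein of the small subunit, read 9.75 in Yap+/+ and 9.56 in Yap+/-, 1.14-fold lower. Chchd1, also of the small subunit, read 10.37 and 10.54, 1.12-fold higher. Ptcd3 of the small subunit and Gadd45gip1 of the large subunit differed by 0.012 and 0.030. Mrpl58, a member whose protein can free stalled peptides and whose older symbol is Ict1, read 9.66 and 9.56, 1.07-fold lower, and Mrpl57 read 10.14 and 10.27, 1.10-fold higher.

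Genes that build the mitochondrial ribosome had 11 of 26 measured members higher and 15 lower in Yap+/-, with a median difference of -0.027. The lower share was 57.7%, against 49.6% of measured genes. None of the 26 was at least 1.2-fold higher (against 6.02% of measured genes), and 2 were at least 1.2-fold lower (against 5.45%). These were the assembly GTPase Mtg2, at 8.32 in Yap+/+ and 7.99 in Yap+/-, 1.26-fold lower, and the ribosomal RNA methyltransferase Mrm2, at 6.60 and 6.27, also 1.26-fold lower. Tfb1m, which methylates the small ribosomal RNA, read 8.54 and 8.30, 1.18-fold lower. The largest positive differences of the list were 0.083 for Fastkd3, 0.082 for Grsf1 and 0.081 for Dhx30, all RNA-binding proteins or helicases of mitochondria.

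The list of mitochondrial translation factors had the lowest median of the lists, -0.10. Besides translation factors it held related genes, such as Oxa1l, Letm1, Lrpprc, Slirp and the amidotransferase genes Qrsl1, Gatb and Gatc. Of 16 measured members 13 were lower and 3 higher, against 49.6% lower among measured genes. None was at least 1.2-fold different, against 6.02% higher and 5.45% lower at that size among measured genes. Oxa1l, which inserts new proteins into the inner membrane, read 7.61 in Yap+/+ and 7.35 in Yap+/-, a difference of -0.26 just inside that threshold. The recycling factor Gfm2 and the amidotransferase subunit Qrsl1 were both 1.16-fold lower. Higher were the RNA-binding protein Slirp at 1.14-fold, the initiation factor Mtif2 at 1.12-fold and the elongation factor Gfm1 at 1.02-fold. The mitochondrial aminoacyl-tRNA synthetases, which charge the tRNAs, had a median of 0.004, with 7 of 13 higher. Rars2 was lowest at -0.17 and Ears2 highest at 0.16.

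Genes of mitochondrial transcription and DNA maintenance went both ways, 9 of 17 higher, with a median of 0.012. The transcription factor Tfb2m read 8.73 and 8.40, 1.25-fold lower. Tfam, which packages mitochondrial DNA and takes part in its transcription, read 9.70 and 9.49, 1.16-fold lower. The nuclease Mgme1 read 6.35 and 6.77, 1.33-fold higher, the elongation factor Tefm was 1.18-fold higher and the DNA polymerase Polg 1.13-fold higher. Of the mitochondrially encoded RNAs, the products of the system, only ND5 had a probe set with 1 symbol, and it read 13.80 and 13.85, a difference of 0.052.

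Among regulators of mitochondrial biogenesis, 7 of 12 measured genes were higher, with a median of 0.042. Ppargc1a, the co-activator PGC-1alpha, had the largest difference, reading 8.06 in Yap+/+ and 8.56 in Yap+/-, 1.42-fold higher. Its relative Ppargc1b read 8.81 and 9.08, 1.21-fold higher, and Yy1 was 1.15-fold higher. Mycn read 6.92 and 6.60, 1.25-fold lower, and the GABP subunit gene Gabpb2 was 1.13-fold lower. Nrf1 and Gabpa, for the factors named with the promoter motifs, differed by -0.050 and 0.013.

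Cytosolic ribosomal proteins and the respiratory chain, the sets most like this family, had similar medians. The 45 measured cytosolic ribosomal protein genes had a median of 0.020, with 30 higher (66.7%, against 48.8% of measured genes). Their large and small subunits had medians of 0.017 and 0.023, so the opposite signs of the mitochondrial subunits were not seen there. This set, chosen by symbol, includes genes for relatives of the core proteins, among them its highest and lowest, Rpl22l1 (0.39) and Rps4l (-0.45). Some of its genes were read close to the minimum of 6, such as Rps27 with a mean of 6.06. The 76 measured nuclear genes of the respiratory chain and ATP synthase had a median of 0.017, with 46 higher (60.5%), and a mean of -0.029. The lowest of them, Cox6b2, a form of a cytochrome oxidase subunit known from testis, read 7.92 in Yap+/+ and 5.06 in Yap+/-, 7.25-fold lower. Its Yap+/- value lies under the level taken as measured, and nothing used here shows it to be above background. Their robust SD was 0.057 and that of the cytosolic set 0.081, below the 0.14 of the mitochondrial ribosomal proteins. Those sets also lay higher on the scale of the arrays, with median log2 values in Yap+/+ of 12.26 for the respiratory chain and 12.66 for the cytosolic set against 9.43 for the family, and over the 452 genes with a mean of at least 12 the robust SD was 0.088. None of these contrasts between lists was tested.

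**Figure D4:**
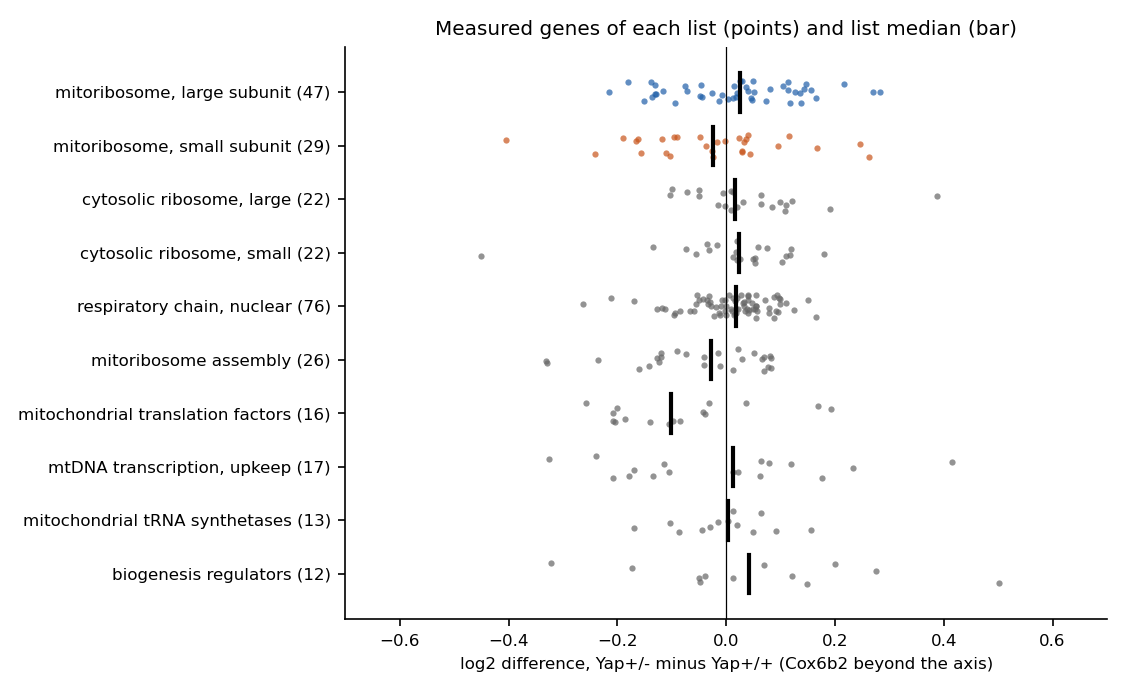
Log2 difference (Yap+/- minus Yap+/+) of the measured genes of each list, 1 point per gene, with the list's median as a black bar and the number of genes in brackets. The large and small subunit medians of the mitochondrial ribosome, 0.025 and -0.023, lie on opposite sides of zero. The list of translation factors and related genes has the median farthest below zero, -0.10.

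Some promoter features that the choice by symbol did not use were more frequent in the windows of the family than in those of measured genes, but most of its windows held none of the motifs for ETS factors, NRF1 and YY1. Enrichment was not tested. Of the 76 genes, 67 matched a RefSeq promoter entry, with 73 windows in all, spread over 16 chromosomes. An ETS match lay in 34.2% of these windows, against 17.9% of 9775 windows of measured genes and 8.86% of all 32851 windows. NRF1 and YY1 matches each lay in 11.0% of the members' windows, against 5.31% and 3.29% of windows of measured genes and 2.71% and 1.40% of all windows. At least 1 of these 3 motifs lay in 47.9% of the members' windows and 24.4% of those of measured genes. E-box and TEAD matches lay in 9.59% and 11.0% of the members' windows, against 10.2% and 11.9% for measured genes and 7.15% and 14.7% for all windows. Alternative starts of a gene count as separate windows, and the 7 windows with an E-box came from 5 genes, 3 of them from Mrpl2. The windows of Mrpl46 and Mrps11 overlap, so the TEAD matches shown for Mrpl46 count in both. NRF1 matches lay in 7 of 46 large and 1 of 27 small subunit windows. ETS matches lay in 14 and 11 of these windows.

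The 25 genes with an ETS match had a median difference of 0.033, with 19 higher in Yap+/-, and the 42 without one had a median of -0.015, also with 19 higher. The 8 genes with a TEAD match had a median of 0.006 with 4 higher, and the 59 without had a median of 0.023 with 34 higher. Mrpl46 and Mrps11 are both among these 8, and the TEAD matches shown for Mrpl46 lie in the windows of both genes. Of 8 genes with an NRF1 match 7 were higher, with a median of 0.035, against 31 of 59 and 0.015 without one. Of 8 genes with a YY1 match 5 were higher, with a median of 0.026, against 33 of 59 and 0.023 without. Of 5 genes with an E-box 3 were higher, with a median of 0.029, against 35 of 62 and 0.021 without. These differences between medians were not tested.

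Many of the genes start close to another gene that runs the other way. An opposite-strand start within 500 bases upstream was found for 24 of the 73 windows, 32.9%, against 15.9% of windows of measured genes and 9.86% of all windows. The 22 genes concerned include Mrpl46 with Mrps11, and Mrpl43 with Twnk, the mitochondrial DNA helicase, which differed by 0.015 and 0.064. Mrps12 faces Sars2, the mitochondrial seryl-tRNA synthetase, which read 5.73 in Yap+/+ and 5.52 in Yap+/-, under the level taken as measured and in the other direction. Mrpl47 faces the complex I gene Ndufb5, at differences of 0.16 and 0.014. Mrpl49 faces Fau, a cytosolic ribosomal protein gene, at -0.13 and 0.016. Of the 12 genes whose partner was measured and not itself a member, 5 had the same sign as the partner. No such partner was at least 1.2-fold different, against 6.02% higher and 5.45% lower at that size among measured genes. Of the 22 genes 11 read higher, with a median difference of -0.005, against 27 of the 45 without such a start, with a median of 0.029.

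**Figure D5:**
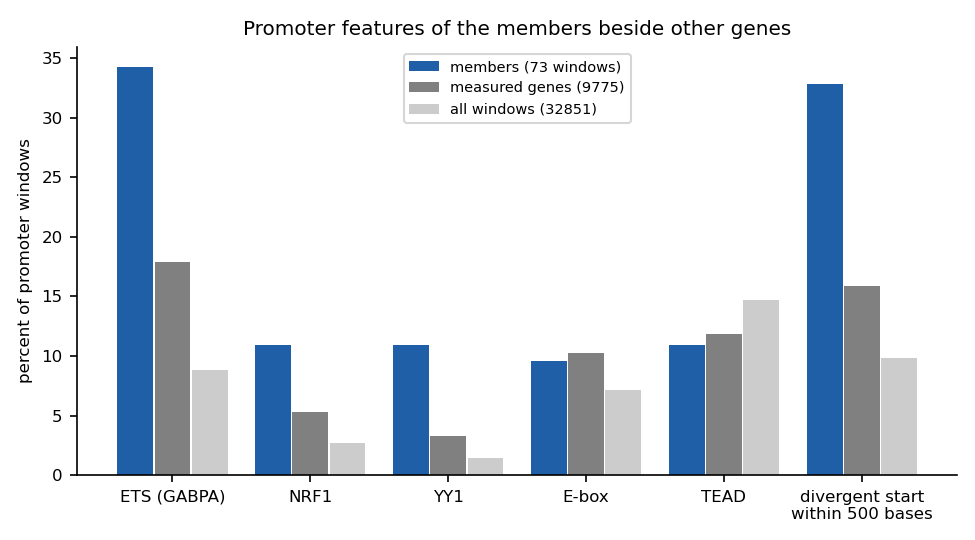
Percent of promoter windows with an exact match to each motif on either strand, or with an opposite-strand start within 500 bases upstream, for the 73 windows of the members (blue), 9775 windows of measured genes (dark grey) and all 32851 windows (light grey). The blue bars for ETS (34.2%), NRF1 and YY1 (both 11.0%) and divergent starts (32.9%) are the tallest of their groups, and those for the E-box and TEAD are not.

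Facts of both arrays run beside every value above. The liver label was checked against hepatocyte markers, and all 7 measured ones read between 12.07 and 15.09 on both arrays, with Alb at 15.09. In the Yap+/- pool all 10 Kupffer cell and macrophage markers were higher, with a median of 0.29 and a summed level on the log2 scale of 12.87 in Yap+/+ and 13.19 in Yap+/-. Of 5 measured sinusoidal endothelial markers 4 were higher, with summed levels of 11.94 in Yap+/+ and 12.19 in Yap+/-. The skeletal muscle markers and the bile duct markers with a probe set had means under the minimum, and the 1 measured marker each of exocrine pancreas (Cela1) and erythroid cells (Alas2) differed by 0.041 and 0.096. Under the minimum, the bile duct marker Krt19 was at 6.73 in Yap+/+ against 4.83 in Yap+/-. Krt7 and Epcam differed by -0.15 and -0.11, and Sox9 went the other way, by 0.26. The pancreatic marker Ctrb1 was at 6.41 and 5.13. Prss2 differed by -0.22, and Cela2a and Cpa1 by 0.045 and 0.048. The summed levels were 7.80 and 7.22 for the bile duct markers with a probe set, and 9.83 and 9.77 for the pancreatic markers. In bulk tissue, fewer cells of a type and less RNA per cell cannot be told apart. Control transcripts for beta-actin, Gapdh and pyruvate carboxylase had more 3-prime than 5-prime signal, and on the log2 scale this excess was larger in the Yap+/- pool by between 0.20 and 0.22. The part of cell makeup and of RNA quality in the differences of the mitochondrial ribosomal protein genes was not tested. Across the 76 genes the difference had a Spearman rho of -0.076 with the span of the gene in RefSeq and of 0.18 with the mean level. These are descriptions of genes that share the same arrays. Gene span is not transcript length, so it does not measure the 3-prime excess.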

How the data were processed

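The deposited values are on a log2 scale, per probe set, from RMA and Partek 6.5, per the submitters' processing notes. Their settings were not found in the labels. Sorted, the columns differ by at most 0.047, as after quantile normalisation, which removes an overall shift between arrays and bears on any change shared by most genes. Scanner files and detection calls were not used here, and the number of arrays limits precision.

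Names came from the platform annotation paired with this table, and 64 controls were left out. Of the rest, 34945 had 1 symbol, 932 several and 9160 none listed. All 76 members matched a RefSeq gene identifier, which changed 0 symbols. The probe set with the highest mean represented a gene, and 9299 genes had a mean of at least 6. Log2 differences, counts at 1.2-fold, 1.5-fold and 2-fold, and medians were computed without a test, since each genotype is 1 array. Genes named were, per subunit, the 6 largest differences in each direction, every member past 1.2-fold, 7 genes chosen by name (Mrps18a, Mrps18b, Mrps18c, Mrps30, Mrps36, Mrpl12, Dap3) and up to 3 per direction of each list. Members and lists were chosen with earlier results of these data known, and the lists from general knowledge of the pathway. The Mrpl46 sequence and facing-start pairs were chosen after their values were seen. Protein sequences were not used here, so the planned comparison of protein lengths was not made. Counting was tested on simulated data. Alternatives changed the filter, the probe set, the scaling, the pseudocount, the subunit assignment and the largest member. The tools were scipy 1.17.1, statsmodels 0.14.6, pandas 2.3.3, numpy 2.4.6 and matplotlib 3.10.9 under Python 3.11.15.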

Additional observations from a re-analysis of the deposited data

Results flagged for a closer look

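The probe set of Mrps15 that does not represent the gene exceeded its Yap+/+ value by 0.38 on the log2 scale in the Yap+/- pool and was not used in the comparison by gene. Of the 38 measured probe sets not used there it was the 1 at least 1.2-fold higher, and 5 others, of Mrps9, Mrpl19, Mrps23, Mrpl38 and Mrps5, were at least 1.2-fold lower. The probe set used for Mrps15 differed by 0.17 in the same direction. For probe sets that do not represent their gene, the matching shares over all genes were not computed.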

How the results depend on the processing

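Under 10 alternatives (no minimum level or one of 7, subunits by structure, a mean over the probe sets of each gene, suffix-free probe sets only, a lowess trend removed, median centring, renewed quantile normalisation, 64 added on the linear scale, and the largest member left out), the median difference kept its sign and moved by at most 0.05 for all members (0.0035 to 0.018), for the large subunit (0.018 to 0.025), for the small subunit (-0.048 to -0.020) and for small minus large (-0.065 to -0.038). The settings with no minimum level and with median centring gave the same values by construction. No member lies under the minimum and the median of measured genes is 0, so these settings are no support. The other 8 could move some of the values, but not each of them every value. A minimum of 7 leaves out only Mrps27, and the largest member is Mrps23. Both are small subunit genes, so neither setting could move the large subunit median. Subunits by structure leaves out only Mrps36. Mrps27 and Mrps36 lay within 1.2-fold, so leaving them out could not move the counts at 1.2-fold. The number of members higher in Yap+/- ranged from 31 to 41, the lowest count coming from probe sets without a suffix, which name 57 members. Counts at 1.2-fold were less steady. The 3 higher members became 1 with the mean of all probe sets, 1 with probe sets without a suffix and 0 with 64 added. The 1 lower member became 0 with the mean of all probe sets, 3 with probe sets without a suffix, and 0 without the largest member, which is Mrps23 itself. That last count follows from leaving the gene out. Mrpl1, Mrpl9, Mrps12 and Mrps23 are read from probe sets with a suffix, so none of these readings enters the suffix-free setting. There the 1 higher member was Mrps15 (0.38), and the 3 lower were Mrpl19 (-0.34), Mrpl38 (-0.31) and Mrps9 (-0.35). None of those genes was past 1.2-fold in the comparison by gene. Adding 64 to both values makes every difference smaller by arithmetic. The mean of all probe sets also takes in probe sets under the minimum, and 73 members reached a mean of 6 there. The other probe sets differed by -0.061 and 0.037 for Mrpl1, by 0.17 and -0.067 for Mrpl9, and by -0.34 and 0 for Mrps23. Averaging them in makes the differences of these genes smaller by arithmetic. Mrps12 has 1 probe set and keeps its value. No paired analysis was possible because each genotype has 1 array. Signal over background was not used here, so a member counts as measured only by the minimum of 6, and Mrps27 alone falls below a minimum of 7.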

Other observations

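Probe sets shared by a member and another gene were left out of the comparison by gene. A probe set of Mrpl30 and the predicted gene Gm6238 read 11.61 in Yap+/+ and 11.73 in Yap+/-, and its second read 7.28 on both arrays. A probe set of Mrpl53 and Ccdc142 read 10.29 and 10.23. A probe set of Mrps34 and Nme3 read 8.58 and 8.67, a difference of 0.087, while the probe set of Mrps34 alone differed by -0.037. Mrpl30 and Mrpl53 are therefore absent from the 76 genes.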
